A study of Mus musculus with 5 samples.

Results

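The 38 cell cycle genes described here were chosen by symbol for what each does, not for its signal, with earlier results of these data known. They were measured in whole colon of wild-type C57BL/B6 mice, 8 weeks old per the study, on 5 single-colour Agilent arrays with 1 mouse each. The 2 Control mice were untreated, and the labels give no vehicle injection for them. The 3 NT-3N mice had received an intravenous injection of NT-3N, a modified human IL-11 that activates the IL-11 receptor, and their colon was taken 3 hr later. Injection and agonist therefore cannot be told apart. The sources give different units for the dose, so no dose is stated. The series asks which colon genes respond to the agonist, and the comparison here asks whether the genes of cell division were among them at this time.

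Each gene was represented by its brightest probe, and values are quantile-normalized log2 signals. Of the 38 genes 37 could be tested, and all 37 were well above background on all 5 arrays; these are the measured genes below. Ccne2, which encodes cyclin E2, was left out because its probe was above background on 1 of 5 arrays. None of the 37 genes passed an adjusted p of 0.05 in limma or in a local-pooled-error test, and the lowest adjusted p in limma was 0.23. Of all 32917 features tested, 0.143% passed in limma, 0.125% higher and 0.0182% lower after NT-3N. At an unadjusted p under 0.05, 2 genes were higher after NT-3N (Mcm4 and Mcm3), against 4.95% of all features, and 2 were lower (Ccnd3 and E2f2), against 4.67%. The local-pooled-error test gave 1 higher and 1 lower at that threshold, where it gave 1.94% and 1.89% of all features. The higher count in limma was 1 without Control replicate 1 or without NT-3N replicate 2, 6 without NT-3N replicate 1 (7.62% of all features) and 8 without Control replicate 2 (3.34%). The changes were small, and the 95% interval of the change lay within 2-fold in either direction for 36 of the 37 genes. Most of the genes shared the order of the 2 Control mice: 34 of 37 were higher in Control replicate 2 than in Control replicate 1.

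A dividing cell passes from G1 into S phase, in which it copies its DNA, and then through G2 into mitosis. D-type and E-type cyclins switch on the cyclin-dependent kinases (CDKs) that inactivate the RB protein and free the E2F factors, which turn on the genes of DNA replication. The genes of mitosis peak later, under B-MYB and FOXM1, and the CDK inhibitors p21 and p27 hold the kinases back. In the colon, division is concentrated in the lower part of the crypts, while follicle B cells, T cells and stromal cells add a share. IL-11 signals through gp130 and STAT3, and D-type cyclins are among the genes that growth signals raise before a cell divides.

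The replication genes and the mitosis genes were kept apart by function, and the words in their promoters are described here. Windows from 250 bases before to 50 bases after the start, taken from RefSeq with GRCm38.p6, were available for 30 of the 38 genes, with 35 windows in all. E2F words (TTTCCCGC, TTTCGCGC, TTTGCCGC or TTTGGCGC, on either strand, where words may overlap each other) were found in 5 of 11 replication windows, in 1 of 15 mitosis windows and in 2.26% of all 32851 windows. CHR words, the cell cycle homology region of late genes (TTTGAA or TTCGAA, on either strand), were found in 12 of 15 mitosis windows, in 2 of 11 replication windows and in 19.2% of all windows. CCAAT was found in 10 of 11 replication windows and 14 of 15 mitosis windows, against 37.4% of all windows. The STAT word TTCNNNGAA was found in 1 of the 35 windows, that of Mcm5, against 8.3% of all windows. A match describes the letters of the window and does not show that a factor binds there.

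The stretches that carry these words are given for 3 replication genes and 2 mitosis genes, with the E2F words in capitals for the Mcm genes and the CHR words in capitals for Cdk1 and Top2a. For Mcm5, Mcm6, Cdk1 and Top2a the stretch is the 160 bases before the start, and for Mcm3 it is the 30 bases from position 17 to position 46 after it. Their places in GRCm38.p6 are chr1:20820266-20820295 on the minus strand for Mcm3, chr8:75109349-75109508 on the plus strand for Mcm5, chr1:128359706-128359865 on the minus strand for Mcm6, chr10:69352913-69353072 on the minus strand for Cdk1 and chr11:99024190-99024349 on the minus strand for Top2a.
Mcm3: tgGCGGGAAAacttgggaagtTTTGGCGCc
Mcm5: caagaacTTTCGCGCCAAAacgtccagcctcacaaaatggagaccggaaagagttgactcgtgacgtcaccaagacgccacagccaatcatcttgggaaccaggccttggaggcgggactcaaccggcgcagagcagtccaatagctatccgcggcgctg
Mcm6: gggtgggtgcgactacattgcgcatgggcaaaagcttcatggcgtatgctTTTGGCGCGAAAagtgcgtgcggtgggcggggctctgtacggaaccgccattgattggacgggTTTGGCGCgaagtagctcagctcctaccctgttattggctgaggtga
Cdk1: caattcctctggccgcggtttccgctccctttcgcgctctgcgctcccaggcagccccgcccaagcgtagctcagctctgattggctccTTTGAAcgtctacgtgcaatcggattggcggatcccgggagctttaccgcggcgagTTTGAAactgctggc
Top2a: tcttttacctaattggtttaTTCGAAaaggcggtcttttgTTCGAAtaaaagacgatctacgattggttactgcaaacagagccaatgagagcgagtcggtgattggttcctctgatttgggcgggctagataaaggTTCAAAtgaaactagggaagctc

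The arrays labelled NT-3N carried the gp130 response, since Socs3 had a log2 fold change of 2.71 (adjusted p = 0.0087 in limma) and Serpina3n one of 3.33 (adjusted p = 0.0027). The median log2 fold change of all features was -0.019. The arrays shared a slide and a scan time. The labelled tissue was borne out by its markers, as all 12 colonocyte and all 10 smooth muscle markers were well above background on all 5 arrays.

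DNA replication genes had the highest median of the 4 roles. All 10 had a positive log2 fold change, between 0.14 and 0.44, with a median of 0.24, and 2 of them passed the unadjusted threshold. The 6 subunits of the MCM complex, the helicase that unwinds DNA at the replication fork, had a median log2 fold change of 0.27. Without Control replicate 1 the median of the 10 genes was 0.11, and without Control replicate 2 it was 0.44. All 10 values stayed positive without either control array.

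Mcm4, a helicase subunit, had the lowest p of all measured members. Its log2 signal was 11.57 and 11.76 in the Control mice and 12.04, 12.15 and 12.15 in the NT-3N mice, so the groups did not overlap. The log2 fold change was 0.44 (standard error 0.095, 95% interval 0.21 to 0.67), which is 1.36-fold. In limma its unadjusted p was 0.0030 and its adjusted p was 0.23. With each array left out in turn the unadjusted p lay between 0.0027 and 0.031.

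Mcm3, a further subunit, read 11.51 and 11.85 in Control and 11.95, 12.00 and 12.13 in NT-3N, again with no overlap. Its log2 fold change was 0.35 (standard error 0.13), and limma gave an unadjusted p of 0.031 (adjusted p = 0.47). The distance between the control mice was 0.34, about as large as that between the groups. Without Control replicate 1 the log2 fold change was 0.18 and the unadjusted p was 0.23; the unadjusted p was 0.061 without NT-3N replicate 2 and 0.089 without NT-3N replicate 3. The other probes of Mcm3 had log2 fold changes of 0.38 and 0.34.

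The remaining subunits did not pass the unadjusted threshold. Mcm2 read 10.00 and 10.40 in Control and 10.12, 10.66 and 10.60 in NT-3N. Mcm5 read 10.66 and 11.06 in Control and 10.98, 11.19 and 11.10 in NT-3N. In both genes NT-3N replicate 1 lay between the control mice and the other NT-3N mice lay above them, so the groups overlapped. The log2 fold changes were 0.26 for Mcm2, 0.23 for Mcm5, 0.29 for Mcm6 and 0.21 for Mcm7. In the same order they were 0.056, 0.031, 0.14 and 0.012 without Control replicate 1, and 0.46, 0.43, 0.45 and 0.40 without Control replicate 2.

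Pcna encodes the sliding clamp of the DNA polymerases and read 13.04 and 13.30 in Control and 13.15, 13.40 and 13.38 in NT-3N. The log2 fold change of Pcna was 0.14 with a 95% interval from -0.15 to 0.42, and it was 0.0055 without Control replicate 1. Uhrf1, which recruits the maintenance DNA methyltransferase to newly copied DNA, had 0.37 and an unadjusted p of 0.056 in limma. For Uhrf1 this was 0.13 (unadjusted p = 0.41) without Control replicate 1 and 0.61 (unadjusted p = 0.0058) without Control replicate 2. Tyms, the enzyme that makes thymidylate, had 0.15. Rrm2, the small subunit of ribonucleotide reductase, had 0.20 and turned to -0.061 without NT-3N replicate 1.

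**Figure D1:**
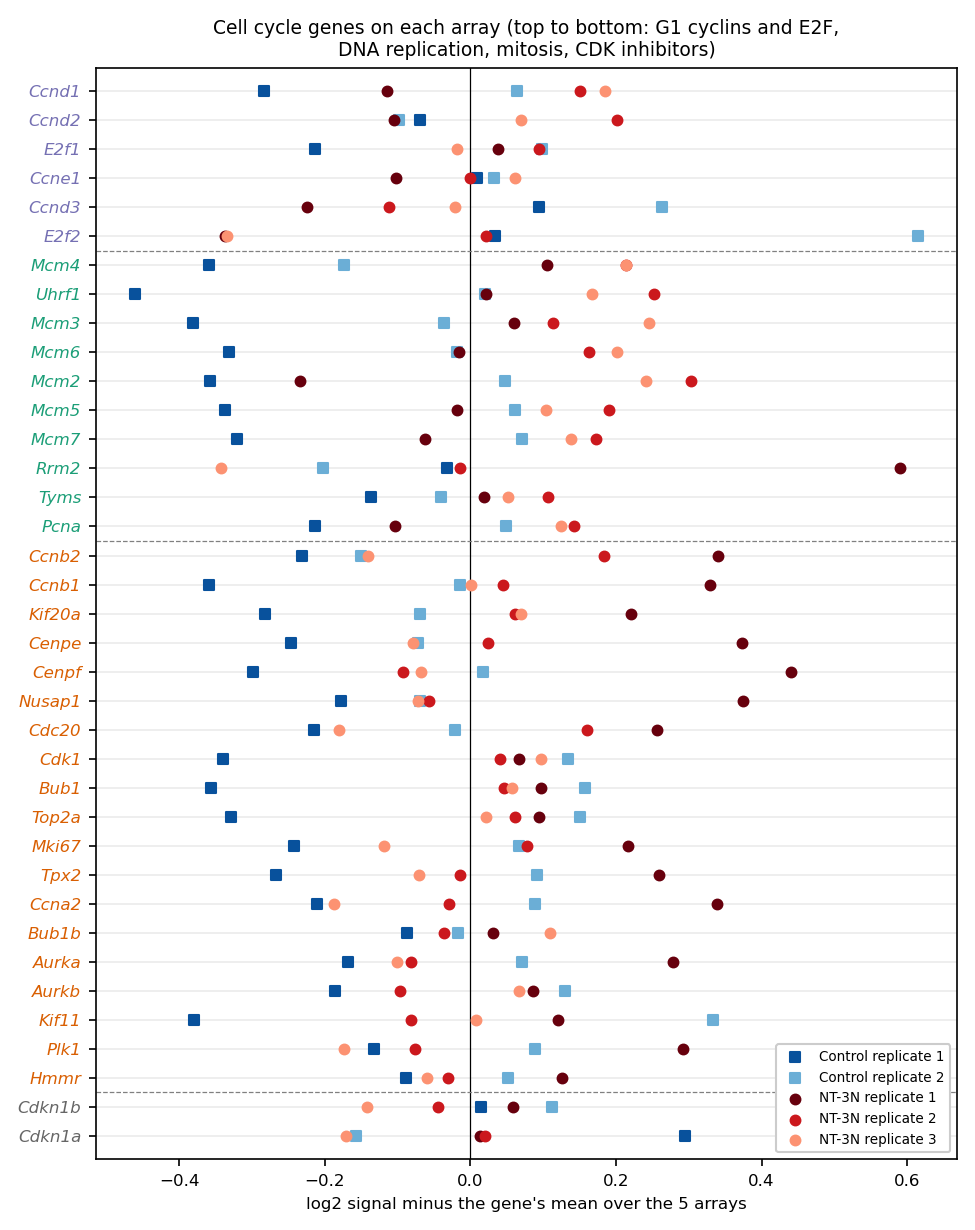
The 37 measured cell cycle genes on each array, as log2 signal minus the mean of the gene over the 5 arrays; squares are the 2 Control mice, circles the 3 NT-3N mice, and dashed lines part the 4 roles. Control replicate 1, the dark blue square, is the lowest array for 29 of the 37 genes, and for Mcm4 the marks of NT-3N replicates 2 and 3 coincide.

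Genes of mitosis differed less between the groups. All 19 had a positive log2 fold change, between 0.030 and 0.32, with a median of 0.15, yet 0 of 19 passed the unadjusted threshold. Without Control replicate 1 the median was -0.034, with 8 genes positive and 11 negative, so the sign of this role rested on 1 array. Without Control replicate 2 the median was 0.32, and without NT-3N replicate 1 it was 0.067.

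Mki67 encodes Ki-67, the usual histological mark of dividing cells. It read 12.23 and 12.54 in Control and 12.68, 12.55 and 12.35 in NT-3N, so NT-3N replicate 3 lay between the controls. Its log2 fold change was 0.15 with a 95% interval from -0.19 to 0.48. Top2a, the topoisomerase that untangles sister chromatids, read 10.47 and 10.95 in Control and 10.89, 10.86 and 10.82 in NT-3N. All 3 NT-3N mice lay between the controls, and the log2 fold change was 0.15 with an interval from -0.21 to 0.51.

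Cdk1, the kinase that drives entry into mitosis, read 7.61 and 8.09 in Control and 8.02, 7.99 and 8.05 in NT-3N. Here too every NT-3N mouse lay between the control mice. The log2 fold change was 0.17 with a 95% interval from -0.23 to 0.57. Without Control replicate 1 it was -0.066.

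The B-type cyclins, its partners, had the largest values of the role. Ccnb1, cyclin B1, read 9.52 and 9.86 in Control and 10.20, 9.92 and 9.88 in NT-3N. Ccnb2, cyclin B2, had the largest change of the role, with 10.63 and 10.71 in Control and 11.20, 11.05 and 10.72 in NT-3N. In both genes the groups did not overlap, but NT-3N replicate 3 lay close to Control replicate 2. The log2 fold changes were 0.31 for Ccnb1 (unadjusted p = 0.090 in limma) and 0.32 for Ccnb2 (unadjusted p = 0.078 in limma). That of Ccnb1 was 0.14 without Control replicate 1. A dimmer probe of Ccnb1 had a larger log2 fold change of 0.87 and the other 0.27. Ccna2, cyclin A2, which acts from S phase onward, had 0.10.

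Among the mitotic kinases, Aurka, which acts at the centrosomes, read 10.74 and 10.98 in Control and 11.19, 10.83 and 10.81 in NT-3N. Plk1, which acts at centrosomes and kinetochores, read 11.01 and 11.23 in Control and 11.43, 11.06 and 10.97 in NT-3N. In both genes NT-3N replicate 1 was the highest array and the other NT-3N mice lay below Control replicate 2. The log2 fold changes were 0.080 for Aurka, with a 95% interval from -0.28 to 0.44, and 0.036 for Plk1, with an interval from -0.35 to 0.42. Without Control replicate 1 they were -0.039 and -0.075. Aurkb, the kinase of the chromosomal passenger complex, had 0.046 and turned to -0.11 without that array.

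The other mitosis genes lay in the same range. The kinesin Kif20a, which acts in cytokinesis, had a log2 fold change of 0.29 with no overlap between the groups and an unadjusted p of 0.059 in limma. The kinetochore genes Cenpe and Cenpf had 0.27 and 0.23, and the spindle proteins Nusap1 and Tpx2 had 0.21 and 0.15. Cdc20, the activator of the anaphase-promoting complex, had 0.20, and the checkpoint kinases Bub1 and Bub1b had 0.17 and 0.087. The spindle motor Kif11 had 0.038 and Hmmr 0.030. Kif20a had 0.19, Cenpe 0.18, Cenpf 0.075 and Cdc20 0.099 without Control replicate 1, while Cenpf had 0.060 and Nusap1 0.059 without NT-3N replicate 1. For Kif11 the control mice were 0.71 apart, the widest distance of any measured member.

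**Figure D2:**
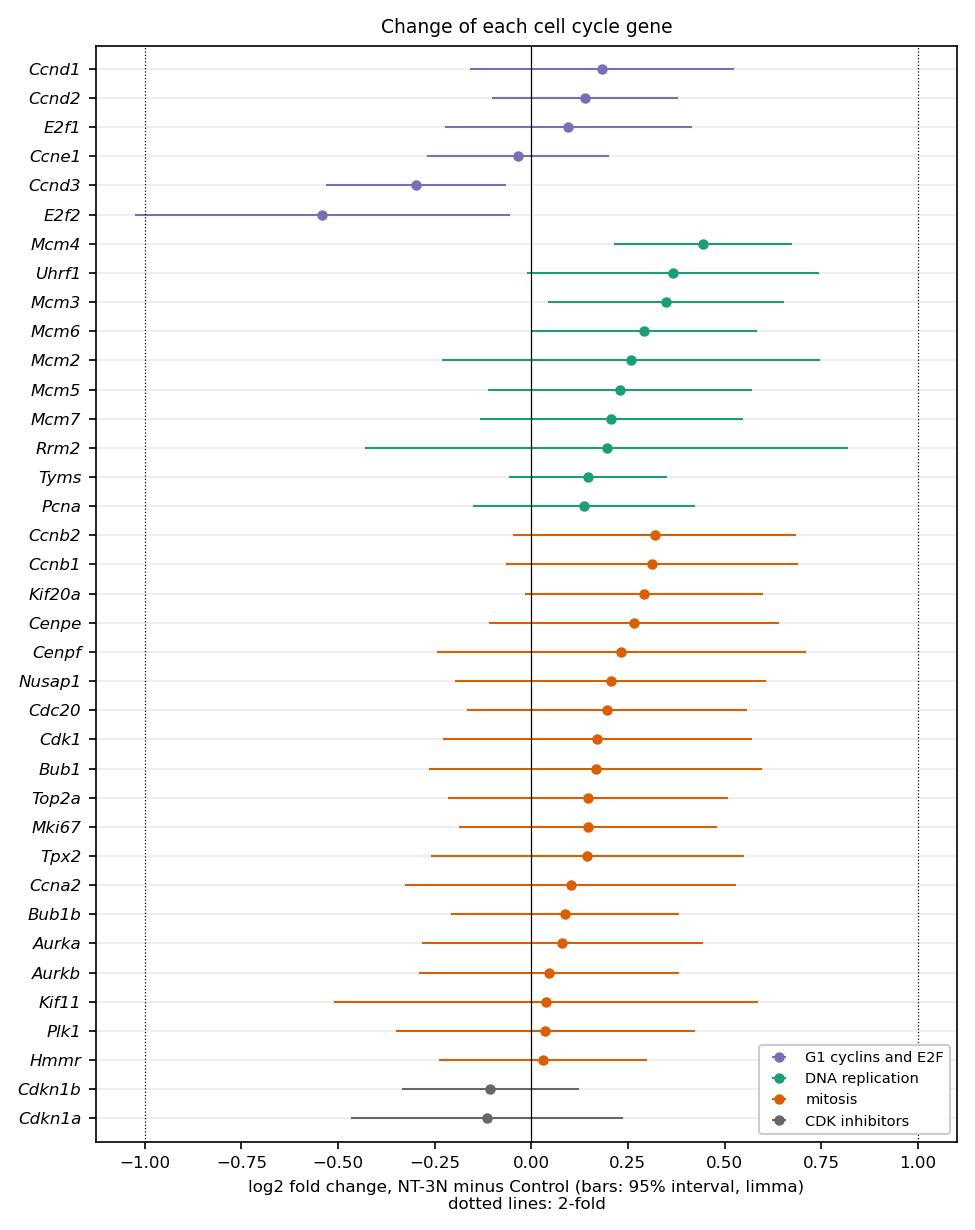
The log2 fold change (NT-3N minus Control) of the 37 measured cell cycle genes with 95% intervals from limma, in the order of the 4 roles; dotted lines mark 2-fold. The interval lies apart from 0 for Mcm4, Mcm3, Ccnd3 and E2f2, and that of E2f2 reaches past 2-fold.

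Genes that act in G1 had no common direction: 3 of the 6 measured genes were positive and 3 negative, with a median log2 fold change of 0.030. The 3 D-type cyclins, which join CDK4 and CDK6, differed among themselves. Ccnd1, cyclin D1, read 12.56 and 12.91 in Control and 12.73, 13.00 and 13.03 in NT-3N, with a log2 fold change of 0.18. Ccnd2, cyclin D2, read 15.05 and 15.02 in Control and 15.02, 15.32 and 15.19 in NT-3N, with 0.14. Neither passed the unadjusted threshold, and in both NT-3N replicate 1 lay below a control mouse. Ccnd1 had a log2 fold change of 0.0096 without Control replicate 1, and Ccnd2 one of 0.066 without NT-3N replicate 2.

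Ccnd3, cyclin D3, was lower after NT-3N at the unadjusted threshold. It read 13.37 and 13.54 in Control and 13.05, 13.16 and 13.25 in NT-3N, so all NT-3N mice lay below both controls. The log2 fold change was -0.30 (standard error 0.096, 95% interval -0.53 to -0.065), and limma gave an unadjusted p of 0.020 (adjusted p = 0.42). A further probe of Ccnd3 gave -0.33. Without Control replicate 2 the log2 fold change was -0.21 and the unadjusted p was 0.15, and with median scaling the unadjusted p was 0.090.

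E2f2, an activating E2F factor, had the lowest log2 fold change of all measured members. It read 10.87 and 11.45 in Control and 10.50, 10.86 and 10.50 in NT-3N, and NT-3N replicate 2 lay just below Control replicate 1. The log2 fold change was -0.54 (standard error 0.20, 95% interval -1.02 to -0.056), with a limma unadjusted p of 0.034 (adjusted p = 0.48). The control mice were 0.58 apart, more than the groups. Without Control replicate 2 the log2 fold change was -0.25 and the unadjusted p was 0.24; the unadjusted p was 0.075 without NT-3N replicate 1 and 0.094 without NT-3N replicate 3. A further probe gave -0.55, with overlap between the groups.

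E2f1, which also activates replication genes, read 8.52 and 8.83 in Control and 8.77, 8.83 and 8.71 in NT-3N, all NT-3N mice between the controls. Ccne1, cyclin E1, the partner of CDK2, read 10.28 and 10.31 in Control and 10.17, 10.27 and 10.33 in NT-3N. The log2 fold changes were 0.095 for E2f1 with a 95% interval from -0.22 to 0.42, and -0.035 for Ccne1 with an interval from -0.27 to 0.20.

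Both CDK inhibitors had slightly negative log2 fold changes, and neither passed the unadjusted threshold. Cdkn1a encodes p21, which p53 and other stress signals raise, and read 13.45 and 13.00 in Control and 13.17, 13.17 and 12.98 in NT-3N. The gene was highest in Control replicate 1, where 29 of the 37 measured genes were lowest. Its log2 fold change of -0.12 had a 95% interval from -0.47 to 0.24 and turned to 0.11 without that array. Cdkn1b, which encodes p27, read 12.00 and 12.10 in Control and 12.05, 11.94 and 11.85 in NT-3N, a log2 fold change of -0.11 whose interval ran from -0.34 to 0.12.

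Set against all features, the counts were as follows. A total of 8 genes did not overlap between the groups and were higher in NT-3N, where 13.5% of all features were so, and 2 did not overlap and were lower, where 14.8% were. The 8 were Mcm3, Mcm4, Mcm6, Uhrf1, Tyms, Ccnb1, Ccnb2 and Kif20a, and for Uhrf1 the nearest arrays of the groups were equal to the second decimal. A positive log2 fold change was found in 32 of 37 genes, against 46.4% of all features. The genes rise and fall together over the cell cycle and are not independent of each other. Further probes were tested for 16 of the genes, and all 20 of these probes had the sign of the probe used.

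The distance between the 2 Control mice was larger than the distance between the groups for 23 of the 37 genes, or 62.2%, against 53.0% of all features. Control replicate 2 lay above Control replicate 1 in 91.9% of the 37 genes and in 47.8% of all features. This held for all 19 mitosis genes, for all 6 MCM subunits and for 9 of the 10 replication genes. In Control replicate 1 the gene was at its lowest of the 5 arrays for 78.4% of the 37 genes, against 16.4% of all features. In whole tissue, fewer dividing cells and less of these RNAs per cell cannot be told apart.

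**Figure D3:**
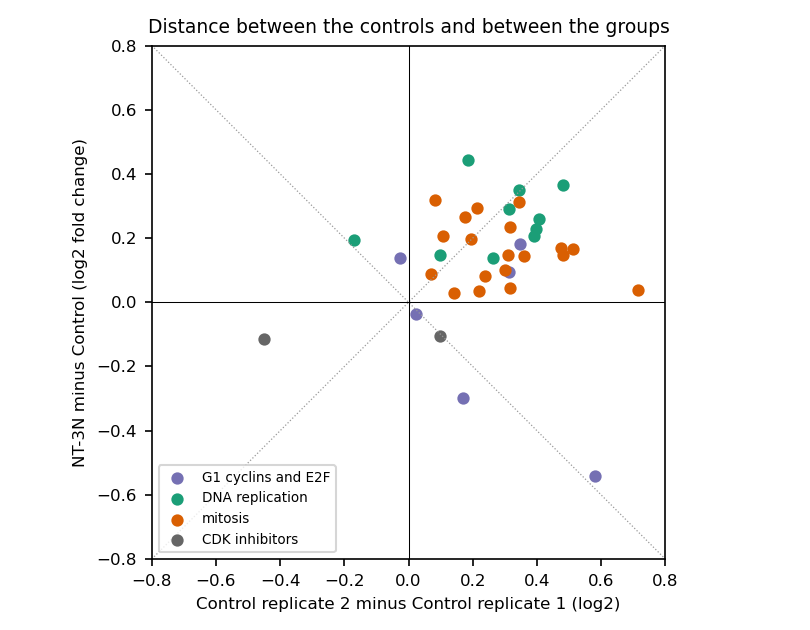
Each point is 1 measured cell cycle gene, with the difference between the 2 Control mice (replicate 2 minus replicate 1, log2) on the x axis and the log2 fold change of NT-3N against Control on the y axis; dotted diagonals mark equal distances. For 34 of the 37 genes the point lies right of 0, and 23 lie closer to the x axis than to the y axis; the axes share the control arrays, so the slope of the cloud is not a result.

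The roles differed in which mouse was highest. As the median over genes of the log2 signal minus the gene's mean, the replication genes stood at -0.33 in Control replicate 1, 0.00088 in Control replicate 2, 0.0018 in NT-3N replicate 1, 0.17 in NT-3N replicate 2 and 0.15 in NT-3N replicate 3. The mitosis genes stood at -0.24, 0.067, 0.26, -0.014 and -0.068 on the same arrays. Both roles were lowest in Control replicate 1, but the replication genes were highest in NT-3N replicates 2 and 3 and the mitosis genes in NT-3N replicate 1. Of the 19 mitosis genes 13 were highest in NT-3N replicate 1, or 68.4%, against 23.7% of all features, while 1 of the 10 replication genes was.

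**Figure D4:**
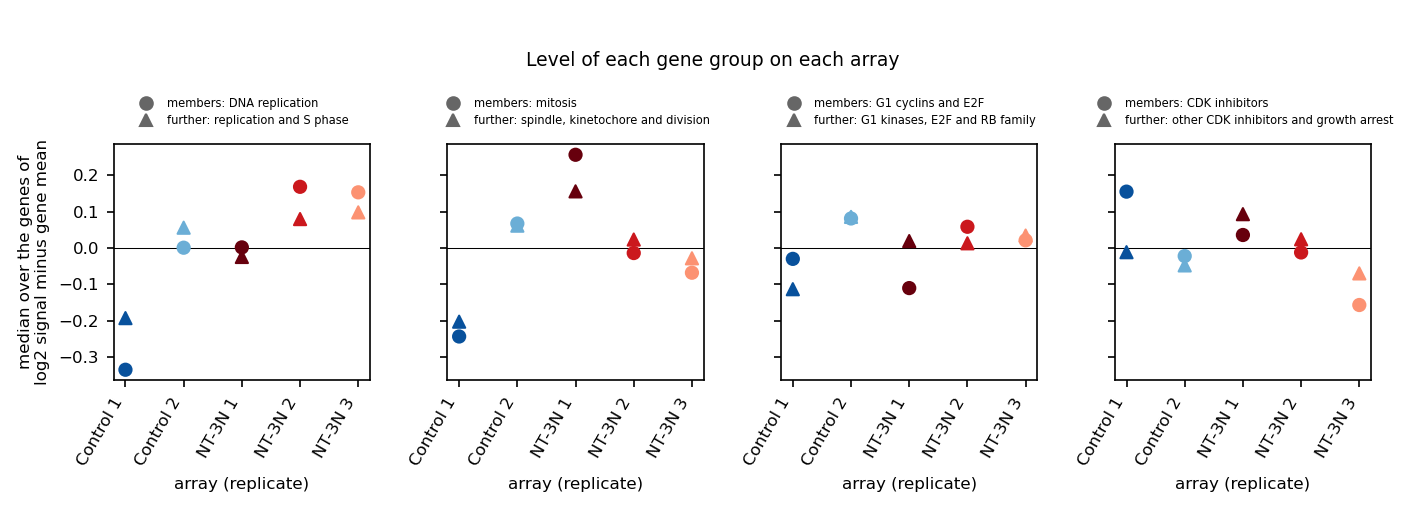
The median over the genes of a group of log2 signal minus the gene's mean, on each of the 5 arrays; circles are the measured cell cycle genes by role and triangles the further genes of the same process. Replication and mitosis genes are lowest in Control replicate 1, and NT-3N replicate 1 is highest for mitosis (0.26) but not for replication (0.0018).

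A wider set of 139 further cell cycle genes, listed by function, was tested in full. At the unadjusted threshold in limma 9 of these were higher, against 4.95% of all features, and 3 lower, against 4.67%, and 1 passed an adjusted p of 0.05. The higher count was 3 without Control replicate 1, 4 without NT-3N replicate 2 and 17 without Control replicate 2. Among 45 genes of replication and S phase 35 were positive, where 46.4% of all features were, with a median log2 fold change of 0.13, and 4 were higher at the unadjusted threshold. Among 50 genes of the spindle, kinetochore and division 40 were positive, with a median of 0.12, and 3 were higher. The 21 G1 kinases and E2F and RB family genes had a median of 0.040, with 2 lower. The 23 other CDK inhibitors and growth arrest genes had one of 0.050, with 2 higher and 1 lower. Over all 139 further genes, 20 did not overlap between the groups and were higher in NT-3N, where 13.5% of all features were so. Another 8 did not overlap and were lower, where 14.8% were.

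In the replication list, Pole2, a subunit of DNA polymerase epsilon, read 7.08 and 7.38 in Control and 7.70, 7.65 and 7.68 in NT-3N. Cdt1, which loads the MCM helicase on replication origins, read 11.25 and 11.47 in Control and 11.53, 11.77 and 11.91 in NT-3N. Gins1, a subunit of the active helicase, read 8.16 and 8.45 in Control and 8.53, 8.76 and 8.65 in NT-3N. The groups did not overlap in these genes, whose log2 fold changes were 0.44, 0.38 and 0.34 with an adjusted p of 0.42, 0.47 and 0.51 in limma. Without Control replicate 1 they were 0.30, 0.27 and 0.20, with an unadjusted p of 0.14, 0.17 and 0.29, so none passed the unadjusted threshold. The fourth gene past the unadjusted threshold was Orc6, a subunit of the origin recognition complex, with 0.27.

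In the spindle list, Nek2, a kinase of centrosome separation, had a log2 fold change of 0.56. Cdca3, which takes part in entry into mitosis, had 0.28, and Stmn1, which destabilises microtubules, had 0.25. None of the 3 overlapped between the groups, as was so for 13.5% of all features on the higher side. Their adjusted p in limma lay between 0.47 and 0.50. Their unadjusted p lay between 0.19 and 0.20 without Control replicate 1. The lower genes of the G1 list were E2f5, a repressing E2F factor, with -0.33, and Cdc25a, a phosphatase that activates CDKs, with -0.21. Their unadjusted p was 0.21 and 0.12 without Control replicate 2.

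Of the arrest genes Gas1 was the exception in size. Gas1, named growth arrest specific 1 and also a co-receptor for hedgehog ligands, read 8.63 and 8.43 in Control and 6.39, 6.49 and 6.49 in NT-3N. This gave a log2 fold change of -2.07 (standard error 0.14; limma adjusted p = 0.0087). The adjusted p was 0.068 without NT-3N replicate 2, 0.10 without NT-3N replicate 3 and 0.057 without Control replicate 1. Cdkn3, a phosphatase that acts on CDKs, and Gadd45g, a stress-induced inhibitor of growth, had log2 fold changes of 0.51 and 0.62 with an adjusted p of 0.31 and 0.42 in limma. Their unadjusted p was 0.057 and 0.11 without Control replicate 2.

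**Figure D5:**
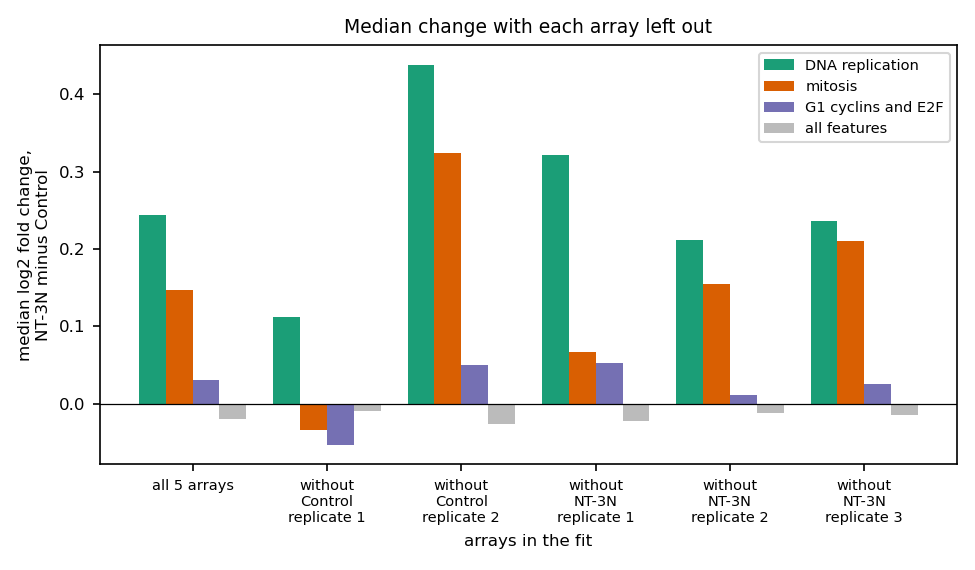
Bars give the median log2 fold change (NT-3N minus Control) of the replication, mitosis and G1 genes and of all features, with all 5 arrays and with each array left out. The replication median stays above 0 throughout, between 0.11 and 0.44, while the mitosis median is -0.034 without Control replicate 1.

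Markers of colon cell types were set beside the cell cycle genes. The 10 markers of crypt base and progenitor epithelium had a median log2 fold change of -0.11. At an unadjusted p under 0.05 in limma 0 were higher, against 4.95% of all features, and 2 lower, against 4.67%. The lower markers were Ascl2 with a log2 fold change of -0.84 and Rgmb with -0.46, and 0 passed an adjusted p of 0.05. The summed signal of the 10 markers was 29223 in Control replicate 1 and 32950 in Control replicate 2, and between 29944 and 34658 in NT-3N. Slc12a2 made up much of this sum. Of the 10 markers, 9 were higher in Control replicate 2 than in Control replicate 1, against 47.8% of all features. In Control replicate 1, 3 of the 10 were at their lowest of the 5 arrays, against 16.4% of all features. As the median over the markers of log2 signal minus the gene's mean, the list stood at -0.032 in Control replicate 1. By the same measure it stood at 0.10 in Control replicate 2, and at -0.093, -0.10 and 0.14 in NT-3N replicates 1, 2 and 3. The 12 colonocyte markers had a median of -0.031 and a summed signal between 814708 and 973122.

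Follicle markers moved the other way between the controls, except Bcl6 and Ms4a1. The summed signal of the 13 B cell and follicle markers was 7740 in Control replicate 1 and 3613 in Control replicate 2. In NT-3N it was between 8878 and 9513. Control replicate 2, the higher control for most of the cell cycle genes, had the lower sum of the controls. Bcl6 read 10.74 and 10.80 in Control and 11.67, 11.78 and 11.54 in NT-3N. Ms4a1 read 4.95 and 6.53 in Control and 9.54, 9.13 and 9.51 in NT-3N. Both added to the NT-3N sums. As the median over the markers of log2 signal minus the gene's mean, the list stood at 0.48 in Control replicate 1. On that measure it was -1.52 in Control replicate 2, and 0.45, 0.22 and 0.45 in NT-3N. The 9 T cell markers measured (Trac was not matched) had a median log2 fold change of 0.031 and a summed signal between 7313 and 8129. The 8 fibroblast markers had a median of 0.047 and a summed signal between 63595 and 94003. Of these, 2 were higher at an unadjusted p under 0.05 in limma, against 4.95% of all features. They were Pdpn with a log2 fold change of 1.49 and Dcn with 0.32, and 0 passed an adjusted p of 0.05. The 10 smooth muscle markers all had negative log2 fold changes, with a median of -0.28. At an unadjusted p under 0.05 in limma 5 were lower, against 4.67% of all features, and 0 passed an adjusted p of 0.05. In 8 the groups did not overlap with NT-3N lower, against 14.8% of all features. The summed signal of the 10 was 621464 and 646500 in Control, and 476569, 582542 and 541413 in NT-3N replicates 1, 2 and 3. Of 8 neutrophil markers 5 were tested, but S100a8, S100a9 and Mmp9 were not well above background on either control array and passed the filter through NT-3N arrays, so no median is given. What any of these cell types adds to the values of the cell cycle genes was not tested.

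The limits are those of 5 mice. An exact two-sided permutation test over the 10 splits of the arrays cannot go below p = 0.1, which Mcm4, Mcm3, Ccnd3, Uhrf1, Tyms, Ccnb1 and Kif20a reached. The share of all features at this floor was not counted. Whether these genes reached it more often than other features therefore cannot be said, and the list is not a result. Groups did not overlap in 13.5% of all features with NT-3N higher and in 14.8% with NT-3N lower.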

How the data were processed

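The authors hybridised Cy3-labelled colon RNA to Agilent SurePrint G3 mouse arrays and extracted spots with Agilent Feature Extraction 11.0.1.1. In the deposited scanner files each spot has a background-subtracted intensity, not scaled between arrays. The authors also deposited log2 values for 37380 probes, which correlated with quantile-normalized scanner log2 values at 0.99998 or above per array and served as an alternative.

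Control and outlier spots (69 to 184 of 59305 per array) were left out, log2 intensities of spots of 1 probe were averaged and arrays were quantile-normalized. Probes well above background on at least 2 arrays, with values on both controls and at least 2 NT-3N arrays, were kept. Probes were named by RefSeq accession (32994 of 56605, GRCm38.p6). The brightest probe of a gene was used. limma 3.58.1 in R 4.3.3 (lmFit, eBayes with intensity trend, two-sided) gave p-values, adjusted by Benjamini-Hochberg over 32917 features. Each p-value sets the difference between the groups against the spread between these mice, with the variance moderated over all features. The local-pooled-error test of the methods was run as an alternative, and it takes the difference of the group medians rather than of the means. Fits were tested on simulated data.

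The members and lists were chosen with earlier results of these data known. Values on every array are given for members past an unadjusted p of 0.05, for the largest changes of each role and for a fixed set of usual markers; of the further genes, for those past an adjusted p of 0.05 and up to 3 per list and direction past an unadjusted p of 0.05.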

Additional observations from a re-analysis of the deposited data

How the results depend on the processing

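No measured cell cycle gene passed an adjusted p of 0.05 in limma with all arrays or under any alternative run: other scaling, normexp background correction, the deposited log2 values, other filters and variance models, array weights, a replicate block, the mean of probes, the local-pooled-error test and each array left out. The unadjusted counts moved. From 2 genes higher, the count was 1 with normexp correction, without the trend or with the local-pooled-error test, 4 with robust variance, 5 with array weights and 5 with the replicate block, while the share of all features was 3.6%, 4.63%, 1.94%, 4.94%, 7.28% and 3.46% in that order; with arrays left out it ranged from 1 without Control replicate 1 or NT-3N replicate 2 to 8 without Control replicate 2, and was 6 without NT-3N replicate 1, with 4.12%, 3.03%, 3.34% and 7.62% of all features in that order. From 2 lower, it was 0 with median scaling or without the trend, 1 without the filter, with array weights or with the local-pooled-error test, and 1 to 2 with arrays left out, where the share of all features ranged from 1.89% with the local-pooled-error test to 8.14% without NT-3N replicate 1. The labels number the replicates and name no pairing. Same-numbered arrays correlated at 0.13 and 0.036 in their deviations, and 2 such values cannot decide whether the numbers pair the mice.

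With arrays left out, the median log2 fold change of the replication and G1 genes together, 0.19 with all arrays, ranged from 0.043 without Control replicate 1 to 0.31, and that of the mitosis genes from -0.034 without Control replicate 1 to 0.32. Among the further genes, 9 higher became 4 without the trend, 5 with the replicate block, 1 with the local-pooled-error test and 3 to 17 with arrays left out; 3 lower became 1 with median scaling or the local-pooled-error test, 5 with array weights and 1 to 4 with arrays left out. The further gene that passed an adjusted p of 0.05, Gas1, was lost without the filter, without the trend and with the replicate block (0 genes), and the count was 0 to 1 with arrays left out.

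Over 17 alternatives 22 of the 37 genes kept their sign. The values given for the local-pooled-error test are differences of group medians, not of means. Ccne1 turned to 0.00438 with median scaling and 0.037 with normexp, Plk1 to -0.00234 with normexp, -0.043 with array weights and -0.055 with the local-pooled-error test, Aurka to -0.033 with that test, Kif11 to -0.0027 with array weights, and Hmmr to -0.00292 with array weights and -0.012 with the local-pooled-error test. With arrays left out, signs turned for 13 genes without Control replicate 1 and for 7 without NT-3N replicate 1, over these ranges: Ccne1 -0.072 to 0.00901, E2f1 -0.060 to 0.25, Rrm2 -0.061 to 0.41, Ccna2 -0.048 to 0.25, Cdk1 -0.066 to 0.41, Mki67 -0.0087 to 0.30, Top2a -0.092 to 0.39, Bub1 -0.091 to 0.42, Aurka -0.043 to 0.20, Aurkb -0.11 to 0.20, Plk1 -0.10 to 0.15, Kif11 -0.32 to 0.40, Tpx2 -0.034 to 0.32, Hmmr -0.040 to 0.10 and Cdkn1a -0.34 to 0.11. Fewer arrays were in those fits; otherwise the cause was not tested.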
